A study of Homo sapiens with 2 samples.

Results

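Receptor tyrosine kinases are cell surface proteins that bind a ligand outside the cell and phosphorylate tyrosines inside it. The 10 genes described here encode 9 such receptors and the ligand of a pair of them, and were taken by name from the 16654 genes of the table. MET and MST1R (the RON receptor) bind the related ligands HGF and MST1. AXL and TYRO3 belong with MERTK to the TAM receptors, and their ligand GAS6 bridges them to phosphatidylserine on membranes. DDR1 is activated by collagen. EPHA2, EPHA4, EPHB2 and EPHB4 bind ephrins, which are themselves anchored to the membrane of a neighbouring cell. In carcinomas of the bile duct, as in other carcinomas, MET, AXL and EPHA2 are studied for their part in cell motility and invasion.

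HUCCT-1 is an established cell line from a human carcinoma of the bile ducts within the liver. The cells were cultured for 48 h with vehicle or with 5 μM XY101, an antagonist of the nuclear receptor RORγ, and poly(A)-selected RNA was sequenced. Both groups were HUCCT-1 tumor cells grown in medium with fetal bovine serum and antibiotics, with no gene deletion or transgene in the labels, and the vehicle sample carries the title Con2. A further agent that the treatment text of the labels names, GSK805, was not analysed here. The data comprise 1 vehicle library and 1 XY101 library, so there was no replicate spread, no test was run, and every difference below describes these libraries. Culture, handling and XY101 cannot be told apart as its source. RNA alone was measured, and no value of receptor protein or its phosphorylation is given. The values are FPKM, fragment counts scaled by the authors to transcript length and library size and rounded to 2 decimals. Levels were compared between genes because the values are divided by length, but the transcript length the authors used for each gene is not known. The log2 ratio of XY101 to vehicle was taken after adding a pseudocount of 0.1 FPKM to both values, whereas folds are the plain quotient of the FPKM values. The approximate depth of 17800000 fragments in either library, read from the spacing of low FPKM values, gave the 95% counting intervals quoted below (exact binomial for ratios, exact Poisson for levels), which cover counting error only. For every gene these intervals assume the canonical transcript length, and a shorter transcript would widen them.

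Cell type markers were read beside the bile duct origin of the line, as a description and not a test of that origin. All 8 biliary epithelial markers examined had a mean of at least 1 FPKM, and KRT7, a keratin of bile duct cells, had levels of 5080.23 FPKM with vehicle and 4184.91 FPKM with the antagonist. None of 6 endothelial markers reached a mean of 1 FPKM, and the pan-leukocyte gene PTPRC was 0.02 FPKM with vehicle and listed at 0 with XY101. Of 6 fibroblast markers, COL1A1 (7.01 and 9.82 FPKM) and LUM (1.05 and 1.37 FPKM) reached a mean of 1 FPKM, and DCN was 0.03 FPKM with vehicle and listed at 0 with XY101. The macrophage gene CD68, which carcinoma cells also express, was 63.58 and 47.17 FPKM, and the monocyte gene CD14 was 2.21 and 3.96 FPKM. Of 6 hepatocyte markers listed, only 2 were in the table. The antitrypsin gene SERPINA1 was 179.49 and 214.25 FPKM and the apolipoprotein gene APOA1 was 0.09 and 0.10 FPKM. Among the biliary markers the lowest ratio was that of the transcription factor gene SOX9, at 14.61 and 7.41 FPKM. In bulk RNA, fewer cells that express a gene and less of its RNA per cell cannot be told apart.

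The sequences just upstream of the 3 genes whose values were lowest relative to vehicle are shown first, because the treatment was aimed at a DNA-binding receptor. Each is the 250 bases before a transcript start in RefSeq (GRCh38.p14), written 5′ to 3′ on the strand of the gene. The capitals mark a cyclic AMP response element in EPHA2, a motif added to the search after that sequence had been read. None of the motifs searched for, named below, was found in the AXL and GAS6 stretches shown.
AXL, chr19:41218973-41219222, plus strand: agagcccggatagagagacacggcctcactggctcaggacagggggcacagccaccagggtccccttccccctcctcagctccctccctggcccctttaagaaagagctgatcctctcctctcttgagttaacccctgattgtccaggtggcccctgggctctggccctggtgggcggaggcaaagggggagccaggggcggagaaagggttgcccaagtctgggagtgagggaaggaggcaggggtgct
EPHA2, chr1:16156070-16156319, minus strand: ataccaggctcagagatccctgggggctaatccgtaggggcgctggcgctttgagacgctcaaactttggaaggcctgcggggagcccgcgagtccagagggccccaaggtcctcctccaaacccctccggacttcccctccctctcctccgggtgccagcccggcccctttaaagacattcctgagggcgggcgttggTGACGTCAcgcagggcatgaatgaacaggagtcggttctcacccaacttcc
GAS6, chr13:113864077-113864326, minus strand: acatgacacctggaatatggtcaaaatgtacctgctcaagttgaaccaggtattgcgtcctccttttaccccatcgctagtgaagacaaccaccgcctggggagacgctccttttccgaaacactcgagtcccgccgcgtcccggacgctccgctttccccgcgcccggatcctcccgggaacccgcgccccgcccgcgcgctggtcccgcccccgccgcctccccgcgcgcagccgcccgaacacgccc

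These upstream stretches differ in composition. The stretch of AXL holds 4 CG dinucleotides at a GC content of 64.4%, that of EPHA2 holds 15 at 63.2% and that of GAS6 holds 31 at 66.8%. AXL has a second annotated start, not shown, whose upstream stretch (chr19:41226505-41226754) holds 13 CG dinucleotides at 54.4%, so its low number belongs to the first start. Windows of 250 bases before and 50 bases after each annotated start, 21 windows over the 10 genes, were searched on both strands for AGGTCA, the half-site core that ROR receptors bind, for the AP-1 site TGANTCA and for the cyclic AMP response element TGACGTCA. The last was added after the EPHA2 sequence had been read. No matches overlapped. AGGTCA occurred in 1 of the 21 windows, the sixth of 8 windows of DDR1, as TGACCT on the plus strand 56 bases before that start (30 bases shown, half-site in capitals).
DDR1, chr6:30884912-30884941, plus strand: aggtgaagcccgTGACCTcccagaaagagt
The half-site was held by 13.8% of all 35116 RefSeq windows. The AP-1 site TGANTCA was found in 1 of 2 TYRO3 windows, in 1 of 8 DDR1 windows and in no other of the 21. Its share of all RefSeq windows was 7.71%. TGACGTCA was found in the single EPHA2 window, 51 bases before the start. Of all windows 1.85% held it, but the EPHA2 match was known before the search, so that share is no test of it. A match is a description of these letters in a short window, and the absence of one says nothing of sites elsewhere.

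All 10 genes passed the filter used below, a mean of at least 1 FPKM over both libraries, from EPHA4 at 1.87 FPKM with vehicle to GAS6 at 179.12 FPKM. In the vehicle library the order of levels was GAS6, AXL, EPHA2, DDR1, MET, EPHB4, EPHB2, MST1R, TYRO3 and EPHA4. The order was the same with XY101. Of the neighbours in that order, EPHB4 and EPHB2 overlapped in their counting intervals in both libraries. EPHA2 (86.30 FPKM, 84.1 to 88.6) and DDR1 (85.61 FPKM, 83.3 to 87.9) overlapped with XY101, although they had been apart with vehicle.

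**Figure D1:**
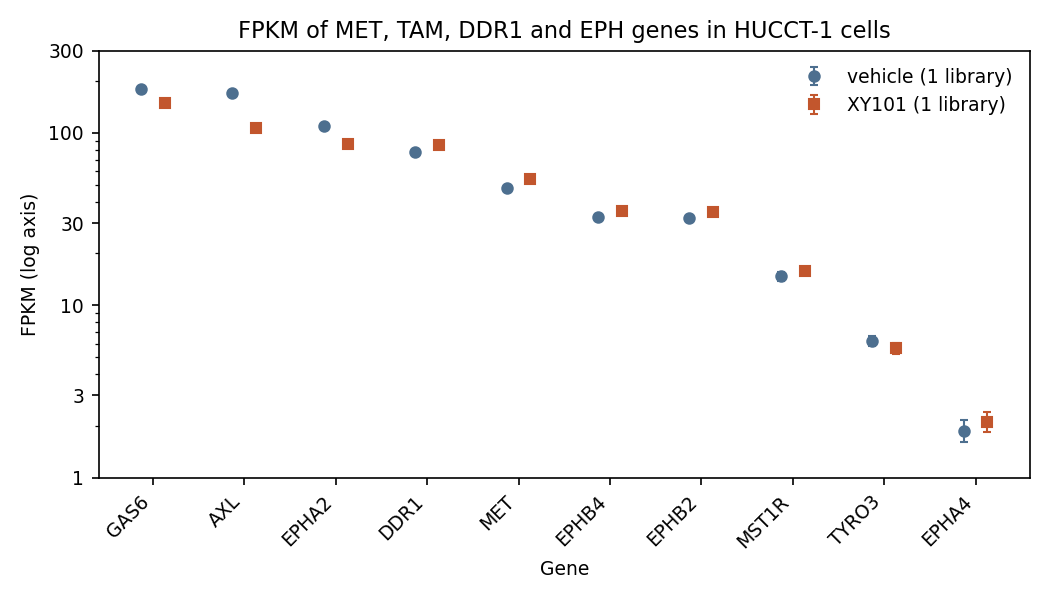
FPKM (log axis) of the 10 genes in the vehicle library (circles) and the XY101 library (squares), 1 library each, with 95% exact Poisson counting intervals, mostly smaller than the symbols. The circles of GAS6, AXL, EPHA2 and TYRO3 lie above their squares, and those of the other 6 genes lie below.

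Of the 10 genes, 1 was at least 1.5-fold lower with XY101 and 0 were at least 1.5-fold higher. Among all 10894 genes with a mean of at least 1 FPKM, 2.32% were at least 1.5-fold lower and 4.90% at least 1.5-fold higher. At a smaller limit, a log2 ratio of 0.32 in size, the counts were 2 lower (AXL and EPHA2) and 0 higher, against 7.52% and 18.9% of all genes. At 2-fold they were 0 and 0, against 0.698% and 1.17%. The median log2 ratio was 0.10 over the 10 genes and 0.09 over all genes tested. The middle of the set thus lay at the middle of the table. AXL, EPHA2, GAS6 and TYRO3 lay below 0, as did 35.3% of all genes, and the other 6 lay between 0.09 and 0.17.

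**Figure D2:**
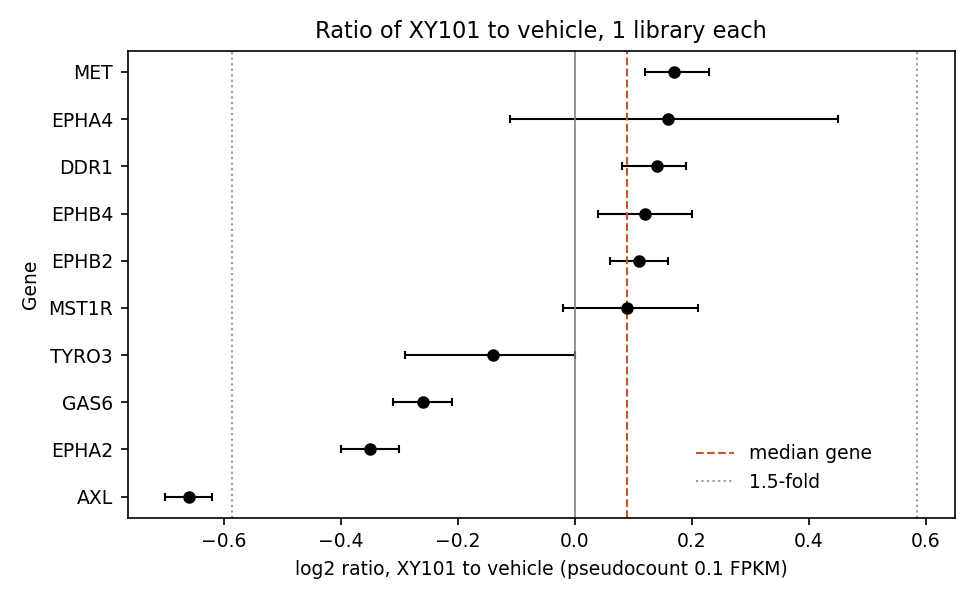
Log2 ratio of XY101 to vehicle for the 10 genes (points) with 95% exact binomial counting intervals (bars). The dashed line is the median of all genes at a mean of at least 1 FPKM (0.09), and dotted lines mark 1.5-fold. AXL (-0.66) alone lies past 1.5-fold.

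Among the TAM receptor genes, AXL had the lowest ratio of all 10 genes. It lies on chromosome 19 from 41725128 to 41767671 (GRCh37, plus strand). Its level was 170.14 FPKM in the vehicle library against 107.41 FPKM in the XY101 library, a 1.58-fold lower value (log2 ratio -0.66, counting interval -0.70 to -0.62). Of 10894 genes, 190 had a ratio as low as that of AXL or lower. GAS6, the ligand, lies on chromosome 13 from 114523522 to 114567049 (minus strand). Its levels were 179.12 FPKM in the vehicle library and 149.83 FPKM in the treated library, which is 1.20-fold lower (log2 ratio -0.26, interval -0.31 to -0.21). The difference in AXL thus exceeded that in its ligand beyond counting error, and GAS6 went from 1.05 to 1.39 times the FPKM of AXL. TYRO3 lies on chromosome 15 from 41849873 to 41875787 (plus strand). It was 6.23 and 5.63 FPKM, 1.11-fold lower (log2 ratio -0.14), with a counting interval from -0.29 to just below 0. That interval assumes the canonical transcript of 8032 nt, and a shorter one would widen it, so TYRO3 is not clearly apart from 0. Centred on the median gene of the table, the TYRO3 value was -0.24 with an interval from -0.38 to -0.10. At this assumed length it lay below that gene. The third TAM receptor gene MERTK, which is not among the 10, was 0.57 and 0.49 FPKM, and PROS1, the other TAM ligand gene, was 0.31 and 0.67 FPKM. AXL made up 96.2% of the summed TAM receptor FPKM with vehicle and 94.6% with XY101, so the TAM receptor RNA was almost entirely that of AXL in both libraries.
Read sharing bears on some of these values. Of 7983 windows of 50 bases in the canonical TYRO3 transcript, 5.07% also occur in transcripts of other genes, TYRO3P (a pseudogene) foremost, against 1.01% for AXL and 0 for GAS6. GAS6-AS1, on the opposite strand, shares 7.0% of the exon bases of GAS6, and the sources used here do not state whether counting used strand.

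EPHA2 had the next lowest ratio after AXL. It lies on chromosome 1 from 16450832 to 16482564 (minus strand), and its product binds ephrin-A ligands and is prominent on epithelial cells. At 109.97 FPKM with vehicle against 86.30 FPKM after XY101, it was 1.27-fold lower (log2 ratio -0.35, interval -0.40 to -0.30). The interval does not overlap that of AXL, and it meets that of GAS6 only between -0.31 and -0.30. Its upper end (-0.30) nearly touches the lower end for TYRO3 (-0.29), an interval that depends on the assumed transcript length. EPHA2 and TYRO3 are therefore not clearly apart. The other genes of the 10 have intervals that lie above it. The other EPH genes of the set were slightly higher with XY101. EPHB4, the receptor that prefers ephrin-B2, lies on chromosome 7 from 100400187 to 100425145 (minus strand) and was 32.42 and 35.30 FPKM (log2 ratio 0.12, interval 0.04 to 0.20). EPHB2 lies on chromosome 1 from 23037332 to 23247993 (plus strand) and was 32.07 and 34.58 FPKM (0.11, interval 0.06 to 0.16). These intervals include the median gene, at 0.09. EPHA4, which binds ephrins of both classes, lies on chromosome 2 from 222282747 to 222438922 (minus strand). It was 1.87 and 2.10 FPKM, about 201 and 227 fragments, and its interval from -0.11 to 0.45 includes both 0 and the median gene, so no difference was detectable at this depth. An opposite-strand noncoding RNA gene shares 4.67% of its exon bases.
Of the 13 EPH receptor genes in the table, 7 reached a mean of 1 FPKM and 3 were listed at 0 in both libraries. EPHA2 contributed 56.4% of their summed FPKM with vehicle and 47.0% with XY101. Outside the 10 genes, EPHB6, whose product lacks kinase activity, was 8.13 and 14.10 FPKM, 1.73-fold higher and the only one of the 7 past 1.5-fold, against 4.90% of all genes higher and 2.32% lower by that much. EPHB3 was 1.93 and 2.54 FPKM, and EPHA1 was 8.23 and 8.20 FPKM.
The ephrins showed a mixed picture. Of 8 ephrin genes, 6 reached a mean of 1 FPKM, 4 of them above 0 (64.4% of all genes were), with a median log2 ratio of 0.19 against 0.09 over all genes. EFNA1, a ligand of EPHA2, was 15.71 and 19.80 FPKM, 1.26-fold higher, so the ratio of EPHA2 to EFNA1 FPKM went from 7.0 to 4.36. EFNA3, another ephrin-A gene, went the other way at 5.06 and 4.03 FPKM, 1.26-fold lower, as EPHA2 was (1.27-fold). EFNA5 was 3.72 and 6.01 FPKM, 1.62-fold higher and the only ephrin past 1.5-fold (4.90% of all genes were as much higher). EFNB2, the ligand of EPHB4, was 16.06 and 18.53 FPKM, and EPHB4 was 2.02 times EFNB2 with vehicle and 1.91 times with XY101.

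**Figure D3:**
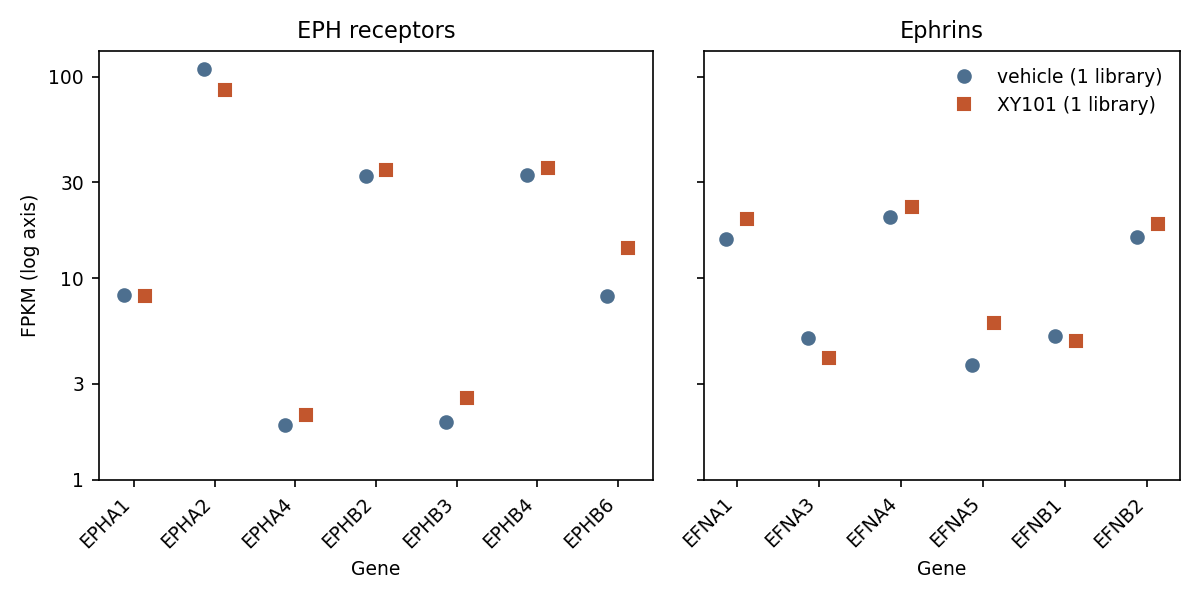
FPKM (log axis) of the 7 EPH receptor genes and the 6 ephrin genes with a mean of at least 1 FPKM, in the vehicle library (circles) and the XY101 library (squares), 1 library each. EPHA2 (86.30 against 109.97) and EFNA3 (4.03 against 5.06) lie lower with XY101, and EPHB6, EFNA1 and EFNA5 lie higher.

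MET and MST1R were close to the median gene. MET lies on chromosome 7 from 116312250 to 116438431 (plus strand). At 47.77 FPKM with vehicle against 53.93 FPKM after XY101, it was 1.13-fold higher, the highest ratio of the 10 at this pseudocount (log2 0.17, interval 0.12 to 0.23). Once centred on the median gene the value was 0.08 with an interval from 0.03 to 0.13, slightly above that gene if the canonical transcript length holds. MST1R lies on chromosome 3 from 49924435 to 49941306 (minus strand). It was 14.76 and 15.73 FPKM, and its log2 ratio of 0.09 (interval -0.02 to 0.21) equalled the median gene. Opposite-strand noncoding RNA genes share up to 6.23% of the exon bases of MST1R. MET stood at 3.24 times the FPKM of MST1R with vehicle and 3.43 times with XY101.
Both ligands act after cleavage by surface proteases. MST1, the MST1R ligand, was 0.67 and 0.37 FPKM, and it has near-identical pseudogene copies with which reads may be shared. HGF was not analysed here. A list of ligands, activators and inhibitors had 8 genes in the table. It also held F2RL1, which encodes a protease-activated receptor and is none of these (217.14 and 225.69 FPKM). Of the 8, 5 reached a mean of 1 FPKM, F2RL1 among them, with log2 ratios from -0.06 to 0.13 and none past 1.5-fold. The matriptase gene ST14, which activates HGF, was 156.66 and 156.41 FPKM, and the genes of its inhibitors were higher than it in either library, with SPINT1 at 170.28 and 174.24 FPKM and SPINT2 at 455.82 and 497.27 FPKM.

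DDR1 lies on chromosome 6 from 30844198 to 30867933 (plus strand). At 77.79 FPKM with vehicle against 85.61 FPKM after XY101, it was 1.10-fold higher (log2 ratio 0.14, interval 0.08 to 0.19), and after centring on the median gene the value was 0.04 with an interval from -0.01 to 0.10. DDR2, its paralogue in mesenchymal cells, was listed at 0 with vehicle and at 0.01 FPKM with XY101. Of 6 collagen genes listed as ligands, COL1A1 alone reached a mean of 1 FPKM. Its partner chain gene COL1A2 was 0.04 and 0.08 FPKM.

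**Figure D4:**
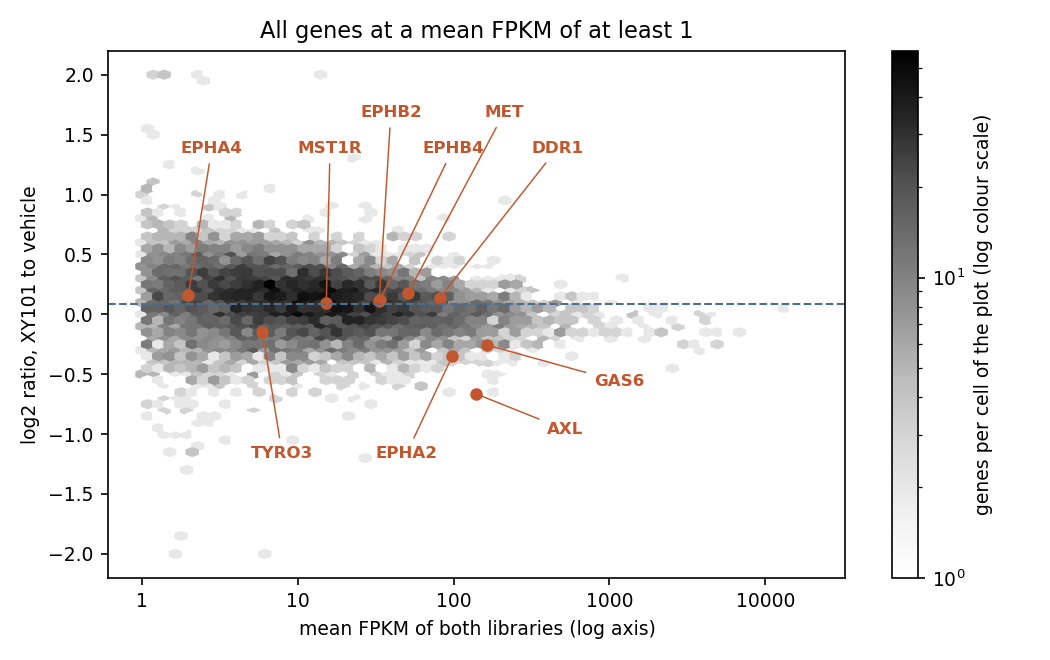
Log2 ratio of XY101 to vehicle against mean FPKM (log axis) for the 10894 genes with a mean of at least 1 FPKM, as grey cells whose shade gives the number of genes (values beyond 2 in either direction are drawn at 2), with the 10 genes as labelled points. The dashed line is the median gene (0.09). AXL lies in the lower tail of the genes of its level, and MET, DDR1, MST1R and the EPHB genes lie near the dashed line.

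The genes with the lowest ratios were also the most abundant of the set, so the values were read against other abundant genes. Across the 1886 genes with a mean of at least 50 FPKM, a level chosen after these values were seen, the median log2 ratio was 0.00, lower than the 0.09 of all genes. At that level 1.75% were at least 1.5-fold lower and 1.59% at least 1.5-fold higher. At the limit of 0.32 on the log2 scale the shares were 7.58% lower and 6.52% higher. AXL was past both limits and EPHA2 past the smaller one. The part of level in these ratios was not tested.

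The 9 receptors were set among all receptor tyrosine kinases. Of 58 such genes listed, 55 were in the table and 23 had a mean of at least 1 FPKM, with a median log2 ratio of 0.12. Of these 23, AXL and EPHA2 had the highest mean FPKM, EGFR the third, and AXL and EPHA2 also had the lowest ratios. Next in ratio came the fibroblast growth factor receptors FGFR1 (log2 ratio -0.33) and FGFR2 (-0.31), close to EPHA2 (-0.35). FGFR1 was 11.45 and 9.08 FPKM. FGFR2 was 1.74 and 1.38 FPKM, the lowest mean of the 23, so its ratio rests on far fewer fragments than that of EPHA2. No counting interval was taken for either FGFR gene. Of the 14 receptors outside the set, 10 lay above 0, against 64.4% of all genes. The pseudokinase gene PTK7 was 17.94 and 21.52 FPKM and ERBB3 was 10.20 and 13.82 FPKM, whereas EGFR was 94.60 and 95.28 FPKM. Past 1.5-fold were AXL, lower, and EPHB6, higher, with shares of all genes as given above. AXL made up 23.6% of the summed FPKM of the 55 genes with vehicle and 15.8% with XY101. The sum went from 721.67 to 677.85 FPKM, and without AXL from 551.53 to 570.44 FPKM.

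**Figure D5:**
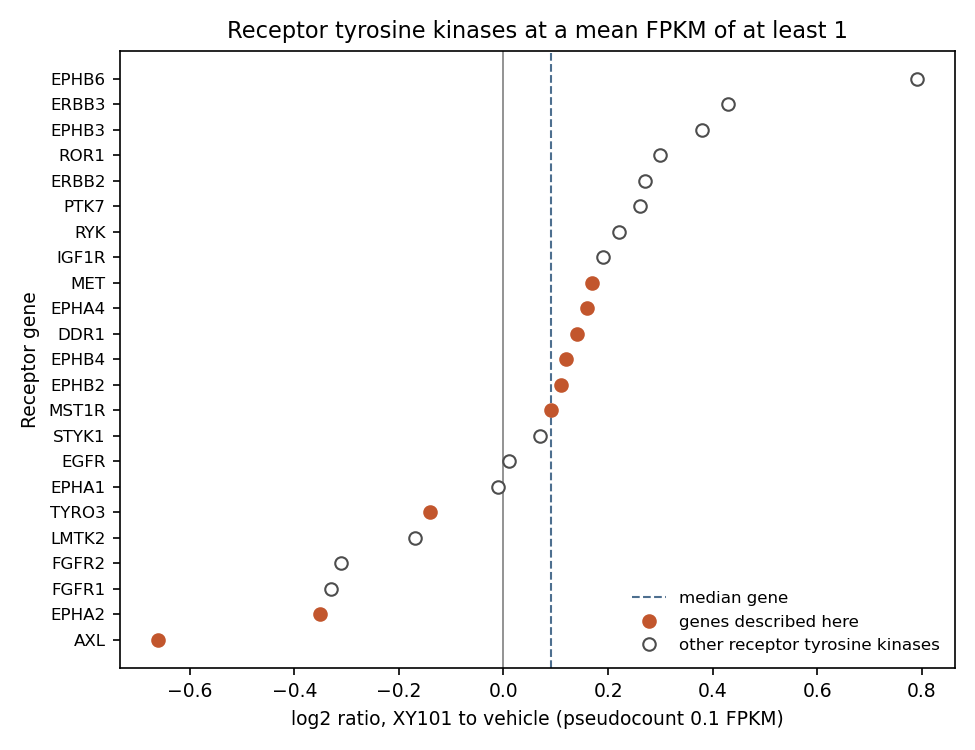
Log2 ratio of XY101 to vehicle for the 23 receptor tyrosine kinase genes with a mean of at least 1 FPKM, 1 library each. Filled points are the 9 receptors described here, open points the other 14, the solid line is 0 and the dashed line the median of all genes (0.09). AXL (-0.66) and EPHB6 (0.79) are the ends of the range.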

How the data were processed

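The deposited table gives FPKM per gene, made by the authors with 1 column per library. The sources differ on how: GRCh37/hg19, BWA, Bowtie 2 and RSEM in the methods of the study, but HISAT2, HTSeq 0.11.2 and GRCh38 in the submitters' processing notes. The counter and its handling of strand and shared reads are therefore not settled. Of 17424 rows, 770 hold no gene and were left out. Log2 ratios used a pseudocount of 0.1 FPKM, and counts of genes used a mean of at least 1 FPKM and 1.5-fold. Depth was taken as the number of fragments and the length offset at which low FPKM values (up to 0.4) of genes with a single annotated transcript of 600 to 3000 nt came closest to whole fragments. Of 177 and 178 such values, 89.8% and 83.1% were whole within 0.2 of a fragment. These shares come from the same values that set the depth, so they are no independent check of it. Intervals from that depth are approximate. Fragments used the canonical transcript length of GENCODE release 44 (GRCh37), and promoter windows are from RefSeq (GRCh38.p14), for all 10 genes. Steps were tested on simulated pairs of libraries with counting error only, in which 200 genes were changed by known folds. Those folds were larger than any among the 10 genes, and the simulation held no spread between replicates. The members, gene lists and motifs were chosen with earlier results of these data known. Named genes were the 10 members, listed receptors, ligands and partners at a mean of at least 1 FPKM, direct ligands and paralogues at any level, and cell type markers. Alternatives covered the pseudocount, filter, fold and scaling. Calculations ran in Python 3.11.15 (scipy 1.17.1, numpy 2.4.6, pandas 2.3.3), and matplotlib 3.10.9 drew the plots.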

Additional observations from a re-analysis of the deposited data

How the results depend on the processing

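Centring on the median gene moved the median log2 ratio of the 10 genes from 0.10 to 0.01, and equal upper quartiles moved it to 0.02. The count of genes lower with XY101 was 2 at a log2 limit of 0.32 and 0 at 2-fold, against 1 at 1.5-fold. Of the other alternatives (pseudocounts of 0.01 and 1 FPKM, no filter, a mean of at least 5 FPKM, equal FPKM sums, equal upper quartiles) none moved the counts of 1 lower and 0 higher. Over the 6 scalings and pseudocounts AXL ranged from -0.76 to -0.62, EPHA2 from -0.44 to -0.31, GAS6 from -0.35 to -0.21 and TYRO3 from -0.24 to -0.10, while MST1R reached 0 once centred. Leaving out a replicate was not possible with 1 library per condition. No paired analysis was possible because there is 1 library in each group. The depth limits EPHA4 most, with about 201 fragments in the vehicle library.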

Other observations

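Of 16 genes listed as partners, sheddases and off switches of these receptors, 15 had a mean of at least 1 FPKM, with a median log2 ratio of 0.05, and 1 was at least 1.5-fold higher (4.90% of all genes) and 0 at least 1.5-fold lower (2.32%). That gene was PLXNB1, a semaphorin receptor known to associate with MET, at 4.57 FPKM with vehicle and 7.85 FPKM with XY101. Its relative PLXNB2 was 78.26 and 92.42 FPKM. PTPRJ, a receptor phosphatase that acts on MET, was 12.57 and 18.26 FPKM, 1.45-fold higher. The sheddases ADAM10 and ADAM17, which release the outer parts of many surface receptors, were 6.41 and 7.74 FPKM and 5.18 and 6.75 FPKM. Among the ubiquitin ligases that mark active receptors for breakdown, CBL was 5.22 and 5.59 FPKM and CBLB 4.24 and 3.19 FPKM. The adaptor gene GRB2 was 56.40 and 61.29 FPKM, and the single gene of the list below a mean of 1 FPKM was GAB1, the docking protein of MET, at 0.42 and 0.44 FPKM (named after its value was seen).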
